A study of Mus musculus with 6 samples.

Results

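Aminoacyl-tRNA synthetases are the enzymes that load each tRNA with its amino acid before translation. The genes were taken from the deposited count table as protein-coding rows whose symbol is a single-letter amino acid code followed by "ars", alone or with 1 or 2 at the end, plus Farsa, Farsb, Fars2 and Eprs. This gave 37 of the 55487 genes in the table. Of these, 17 have a symbol ending in 2 and encode mitochondrial enzymes, and the other 20 are called cytosolic here. All 37 passed the filter on low counts, so the groups below hold every member.

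Cytosolic and mitochondrial protein synthesis use largely separate sets of synthetases. The mitochondrial enzymes are encoded in the nucleus, made in the cytosol and imported. Gars and Kars are exceptions to the separate sets, in which the same gene makes the enzyme of both compartments. Several cytosolic enzymes are held in a multisynthetase complex by the scaffold proteins Aimp1, Aimp2 and Eef1e1. Many cytosolic synthetase genes are known targets of ATF4, the transcription factor that answers amino acid shortage, and Wars is known as an interferon-induced gene.

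Primary fibroblasts from the lungs of wild-type C57BL/6 mice were grown in DMEM with serum. After 24 h in 0.1% serum, 3 samples received rmCIRBP, the recombinant mouse form of cold-inducible RNA-binding protein, at 1 µg/mL for 24 h, and the other 3 received PBS. PolyA-selected RNA was sequenced in a single batch. Separate mice or cultures are not stated for the replicates, and p-values below rest on sample-to-sample spread that may be only technical.

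Libraries held 13677385 to 14001478 counts after rmCIRBP and 12105584 to 14262375 after PBS. Levels are given in CPM, counts scaled to library size. Of 9 fibroblast markers all passed the filter on low counts, with 1 called higher and 2 lower, and they summed to 21100 to 27900 CPM after rmCIRBP and 27000 to 31500 CPM after PBS. The 7 macrophage markers summed to 71.6 to 141 CPM after rmCIRBP and to 114 to 152 CPM after PBS, with 2 called higher and 1 lower. Of 5 endothelial markers 2 were called lower, and they summed to 5.89 to 8.19 CPM after rmCIRBP and 19.2 to 27.4 CPM after PBS. Epithelial, lymphocyte and neutrophil markers summed to at most 0.877 CPM in any library, with Krt8, Nkx2-1, Cd3e, S100a9, Ly6g and Retnlg at 0. The part of other cells in the results below was not tested. In RNA of whole cultures, fewer cells of a type and less RNA per cell cannot be told apart.

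Within the rmCIRBP group the second library stood apart for the cytosolic synthetases. Nars, which loads asparagine, shows this most plainly, with 239, 431 and 185 CPM in rmCIRBP libraries 1, 2 and 3, and 268, 196 and 171 CPM in PBS libraries 1, 2 and 3. The groups overlapped, and rmCIRBP 2 lay far above the other 5 libraries. Across all 6 libraries, rmCIRBP 2 had the highest level for 19 of 20 cytosolic members, Qars being the exception, against 23.8% of the 15801 genes tested. Of the 17 mitochondrial members, 5 were highest there. The median log2 ratio of rmCIRBP 2 over the mean of the other rmCIRBP libraries was 0.67 for cytosolic members, 0.06 for mitochondrial members and -0.02 for all genes tested. In the PBS group, PBS 1 was the highest library for 18 of 20 cytosolic members and 7 of 17 mitochondrial members, against 38% of all genes. In some cell type markers rmCIRBP 2 also stood apart from the other rmCIRBP libraries, and in others it did not. Among fibroblast markers its log2 ratio over their mean was -1.86 for Lum, -1.14 for Pdgfra, -0.85 for Col3a1 and -0.49 for Dcn. It was -0.31 for Col1a2, -0.24 for Pdgfrb, -0.07 for Col1a1, -0.01 for Vim and 0.12 for Thy1. Lum rested on 36, 8 and 21 counts. Among macrophage markers the ratio was 1.19 for Ptprc, 0.96 for Marco, 0.78 for Mrc1, 0.53 for Adgre1 and 0.48 for Lyz2. It was 0.12 for Csf1r and -0.18 for Cd68. Levels follow for Pdgfra, Col3a1 and Marco. Pdgfra, a fibroblast receptor, had 771, 347 and 760 CPM in rmCIRBP libraries 1, 2 and 3, against 417, 427 and 434 CPM after PBS. Col3a1, a collagen gene, had 7300, 4280 and 8170 CPM after rmCIRBP and 6530, 7020 and 5180 CPM after PBS. Marco, a macrophage receptor, had 8.53, 14.5 and 6.38 CPM after rmCIRBP and 0.166, 0.163 and 0.273 CPM after PBS. Chi-square per degree of freedom over genes was 35.1 between rmCIRBP 2 and rmCIRBP 1 and 63.1 between rmCIRBP 2 and rmCIRBP 3. Between rmCIRBP 1 and rmCIRBP 3 it was 15.7. Against PBS 1, 2 and 3 it was 58.1, 91.5 and 101.4 for rmCIRBP 2. The same values were 60.6, 70.7 and 80.2 for rmCIRBP 1 and 76.9, 77.5 and 86 for rmCIRBP 3. The part of these differences in the synthetase values was not tested.

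The plot of levels relative to the mean of the 6 libraries shows these patterns gene by gene.

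**Figure D1:**
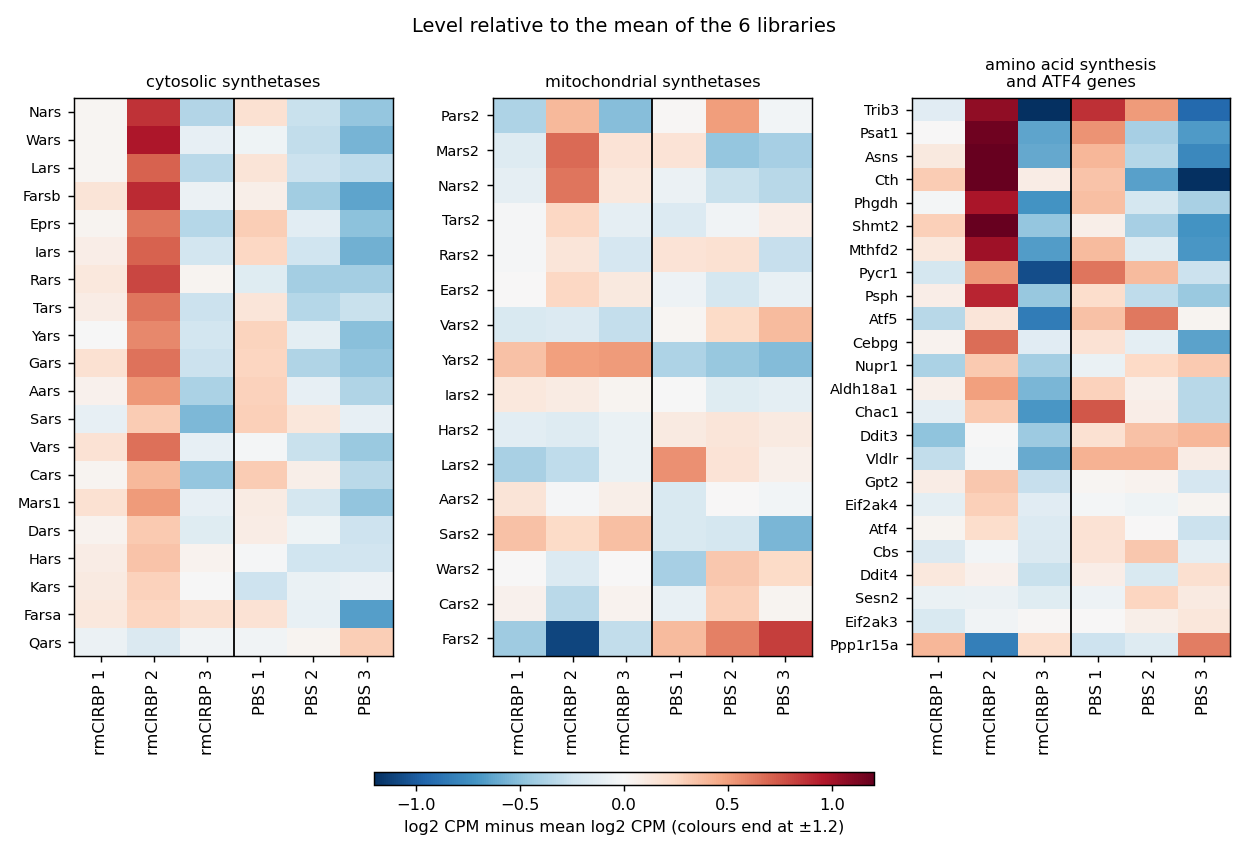
Each row is a gene, each column a library, and the colour is log2 CPM minus the gene's mean over the 6 libraries, with genes sorted by how far rmCIRBP 2 lay above the other rmCIRBP libraries. The rmCIRBP 2 column is the reddest for 19 of 20 cytosolic synthetases and 14 of 24 amino acid synthesis and ATF4 genes, against 5 of 17 mitochondrial synthetases, of which 16 are drawn.

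Many amino acid synthesis and stress genes of the ATF4 list were also high in rmCIRBP 2, though not all. Of the list's 24 members, 14 were highest of all in rmCIRBP 2. In 21 the level was higher there than in the other rmCIRBP libraries, against 37.8% of all genes. PBS 1 was the highest PBS library for 13 of the 24, against 38% of all genes. Asns and Psat1 were among the strongest cases. Asns, asparagine synthetase, had 89.9, 193 and 54.0 CPM after rmCIRBP and 109, 65.2 and 48.3 CPM after PBS. Psat1, an enzyme of serine synthesis, had 130, 290 and 83.1 CPM after rmCIRBP and 188, 98.1 and 80.6 CPM after PBS. For both genes the groups overlapped, and rmCIRBP 2 and PBS 1 were the highest library of their group. Atf4 itself varied less, with 247, 279 and 215 CPM after rmCIRBP and 273, 243 and 202 CPM after PBS. Ppp1r15a ran the other way, with 145, 62.4 and 128 CPM after rmCIRBP and 92.9, 99.1 and 169 CPM after PBS.

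Promoter sequences are shown because ATF4, in pairs with C/EBP factors, is known to bind elements with the letters TGATGNAA. RefSeq windows (GRCm38.p6, 250 bases before to 50 after the start) were matched for 27 of the 37 genes by gene identifier, 13 of them cytosolic and 14 mitochondrial. On either strand, the letters occurred in the windows of 5 of 13 cytosolic and 0 of 14 mitochondrial genes, and in 4.51% of all 27025 genes with a window. Of the 23 matched genes of the ATF4 list, 6 held them. A match describes letters and is not evidence of a bound site, and genes with no match may have elements elsewhere. The 5 cytosolic genes were Aars, Gars, Iars, Tars and Yars, for alanine, glycine, isoleucine, threonine and tyrosine. The stretches read 5′ to 3′ on the gene's strand, and capitals mark the matched letters, which lie on the opposite strand in all but Yars.
Aars, chr8:111033710-111033757, plus strand: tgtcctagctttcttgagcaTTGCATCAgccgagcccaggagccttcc
Aars, chr8:111033841-111033868, plus strand: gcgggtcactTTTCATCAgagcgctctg
Gars, chr6:55037951-55037998, plus strand: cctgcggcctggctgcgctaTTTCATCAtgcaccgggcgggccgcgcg
Iars, chr13:49682127-49682154, plus strand: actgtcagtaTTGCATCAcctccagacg
Tars, chr15:11399659-11399693, minus strand: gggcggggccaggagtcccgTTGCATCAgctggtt
Yars, chr4:129189896-129189923, plus strand: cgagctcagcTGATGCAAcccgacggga
In all 5 genes rmCIRBP 2 was the highest library and PBS 1 the highest PBS library, as for most other cytosolic members. Of those others, Cars, Hars, Lars, Nars, Rars, Vars and Wars had no window and were not searched.

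Levels were compared between genes as CPM per kilobase of coding transcript (CPM/kb). Cytosolic members ranged from 20.2 to 103 CPM/kb after rmCIRBP, with a median of 32.7, and from 12.5 to 78.8 CPM/kb after PBS, with a median of 27.2. Mitochondrial members ranged from 1.07 to 15.6 CPM/kb after rmCIRBP, with a median of 4.90, and from 0.769 to 21.0 CPM/kb after PBS, with a median of 4.58. The cytosolic ranges are thus mostly above the mitochondrial ones in either group. Gars was the most abundant cytosolic gene (103 CPM/kb after rmCIRBP and 78.8 after PBS), followed by Nars (97.3 and 72.3). Farsb, the beta subunit of phenylalanyl-tRNA synthetase, was the least abundant (20.2 after rmCIRBP and 12.5 after PBS). Among mitochondrial genes Lars2 had the highest mean over the groups (14.6 CPM/kb after rmCIRBP and 21.0 after PBS). Mars2 had the lowest (1.07 after rmCIRBP and 0.769 after PBS), a rank that rests on its 11.294 kb of exons. Without scaling to length, Mars2 had a mean of 12.1 CPM after rmCIRBP and 8.69 CPM after PBS. Pars2 (3.89 and 4.76 CPM) and Nars2 (5.86 and 4.21 CPM) lay below it.

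Whether rmCIRBP changed these genes was tested with edgeR's quasi-likelihood F test, fitted to all 15801 genes that passed the filter and adjusted by Benjamini-Hochberg over all of them. No cytosolic synthetase passed at an adjusted p of 0.05 in either direction, whereas 3 of 17 mitochondrial ones did: Yars2 and Sars2 rose and Fars2 fell. Over all genes 11.5% passed, 6.74% higher and 4.77% lower, a share that the 3 of 37 synthetases called do not exceed. With upper quartile scaling the whole table gave 925 genes higher and 1022 lower, against 1065 and 753 here. At an unadjusted p of 0.05, edgeR had 6 cytosolic members higher and 0 lower, and 2 mitochondrial members higher and 4 lower, against 28.8% of all genes in either direction, 15% higher and 13.8% lower. DESeq2 called 5 of 37 members, adding Rars and Lars2, against 16.6% of all genes, and limma voom called the same 3 as edgeR. The plot of fold changes shows the estimates with their errors for 20 cytosolic and 16 mitochondrial members.

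**Figure D2:**
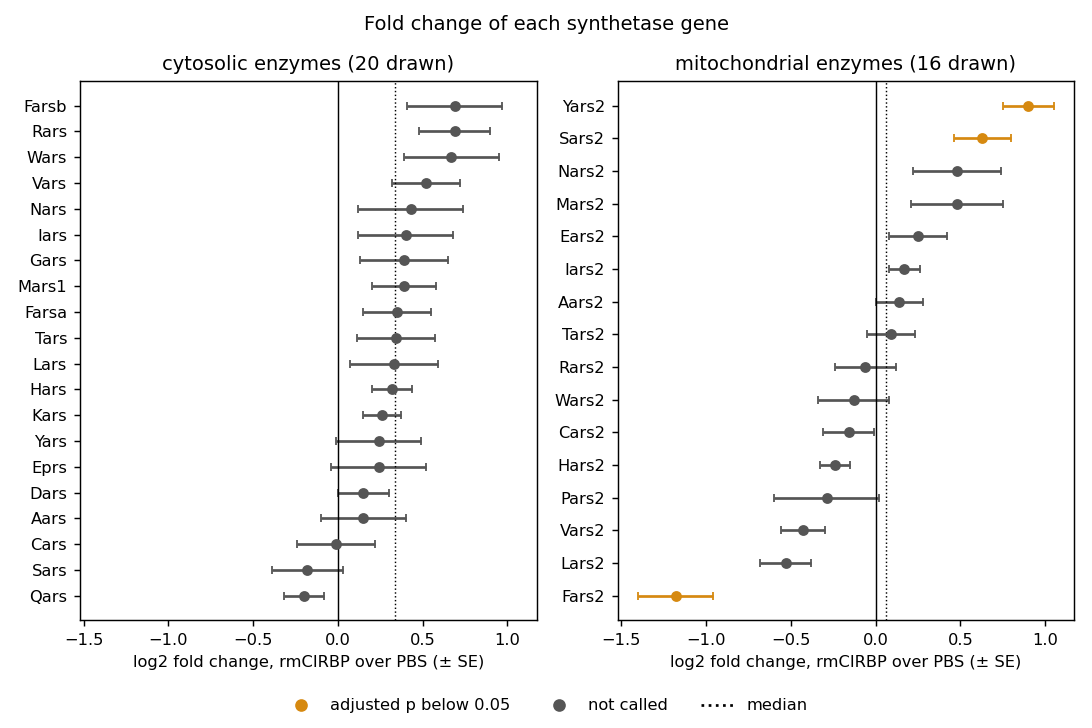
Points are log2 fold changes of rmCIRBP over PBS with standard errors from the edgeR fit, for the 20 cytosolic and 16 of the 17 mitochondrial genes. Dotted lines mark the median of each compartment, 0.33 for the 20 cytosolic and 0.06 for the 17 mitochondrial genes, and orange marks the 3 genes with an adjusted p below 0.05.

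Most cytosolic estimates lay above 0, though none passed. The log2 fold change was above 0 for 17 of 20 cytosolic members, with a median of 0.33 and a range from -0.20 to 0.69, and for 9 of 17 mitochondrial members, with a median of 0.06 and a range from -1.18 to 0.90. Over all genes tested the median was -0.01, and 49.2% lay above 0. Without rmCIRBP 2, 13 of 20 cytosolic members lay above 0 and their median was 0.08. Without rmCIRBP 2 and PBS 1 together, an alternative chosen after the values were seen, 17 of 20 lay above 0, with a median of 0.23, and Rars and Farsb passed. That fit compares 2 libraries with 2.

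Summed over the 20 cytosolic genes, the level was 2399, 3451 and 1944 CPM after rmCIRBP and 2585, 2050 and 1805 CPM after PBS. The 17 mitochondrial genes summed to 400.1, 405.4 and 406.7 CPM after rmCIRBP and to 449.0, 444.2 and 436.9 CPM after PBS. The cytosolic sums overlapped between groups, with rmCIRBP 3 below PBS 1 and PBS 2, while the mitochondrial sums did not overlap and were lower after rmCIRBP. Without Fars2 and Lars2, the other 15 mitochondrial genes summed to 324.8, 335.5 and 316.6 CPM after rmCIRBP. After PBS they summed to 308.4, 319.6 and 309.2 CPM, so that the groups overlapped. Fars2 and Lars2 had the lowest log2 fold changes of the compartment and were left out after the values were seen. Leaving them out had to raise the sums after rmCIRBP relative to PBS. The median spread within groups (SD of log2 CPM) was 0.37 for cytosolic members, 0.16 for mitochondrial members and 0.22 for 14990 genes above 1 CPM with counts in every library.

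Of the 8 cytosolic members known from the multisynthetase complex (Dars, Eprs, Iars, Kars, Lars, Mars1, Qars and Rars), none passed, and the median log2 fold change was 0.29, or 0.05 without rmCIRBP 2 and 0.48 without PBS 1. Rars, arginyl-tRNA synthetase (GRCm38 chromosome 11, 35808381 to 35834506), came nearest. It had 74.5, 119 and 69.8 CPM after rmCIRBP and 61.5, 51.2 and 51.3 CPM after PBS. The groups did not overlap, and the log2 fold change was 0.69 ± 0.21 (SE, n = 3 each; edgeR adjusted p = 0.0715, DESeq2 adjusted p = 0.0262). Without rmCIRBP 2 its log2 fold change was 0.40 (edgeR adjusted p = 0.0829), without rmCIRBP 3 it was 0.83 (0.0489), and without rmCIRBP 2 and PBS 1 it was 0.50 (0.0167).

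Kars, which loads lysine in both compartments, had 99.6, 112 and 91.9 CPM after rmCIRBP and 77.8, 87.5 and 88.3 CPM after PBS. These groups did not overlap, but Kars missed the threshold (log2 fold change 0.26 ± 0.11; edgeR adjusted p = 0.172). Eprs, which loads both glutamate and proline, overlapped between groups, with 248, 378 and 191 CPM after rmCIRBP and 298, 222 and 173 CPM after PBS. Its log2 fold change was 0.24 ± 0.28, and -0.07 without rmCIRBP 2. Qars, for glutamine, was the cytosolic member with the lowest estimate. Its level was 81.5, 75.8 and 82.7 CPM after rmCIRBP and 82.9, 87.1 and 105 CPM after PBS (log2 fold change -0.20 ± 0.12; edgeR adjusted p = 0.304). Every PBS value of Qars lay above every rmCIRBP value, by as little as 82.9 against 82.7 CPM.

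The other 12 cytosolic members had a median log2 fold change of 0.34, or 0.10 without rmCIRBP 2 and 0.53 without PBS 1, and in all 12 the highest library was rmCIRBP 2. Farsb, with the highest cytosolic estimate, had 37.6, 63.1 and 32.3 CPM after rmCIRBP and 35.6, 25.3 and 21.8 CPM after PBS. The groups overlapped (log2 fold change 0.69 ± 0.28; edgeR adjusted p = 0.150), and without rmCIRBP 2 its log2 fold change was 0.35 (edgeR adjusted p = 0.351). Without rmCIRBP 2 and PBS 1 together it was called (0.58; edgeR adjusted p = 0.0328). Farsa, the alpha subunit of the same enzyme, was at 0.35 ± 0.20 on the log2 scale and did not pass. Gars, for glycine, had 237, 327 and 174 CPM after rmCIRBP and 249, 163 and 151 CPM after PBS, again with overlap. Its log2 fold change was 0.39 ± 0.26, and 0.14 without rmCIRBP 2.

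Wars, tryptophanyl-tRNA synthetase (chromosome 12, 108860030 to 108894174), did not pass. It had 69.3, 134 and 63.6 CPM after rmCIRBP and 65.9, 55.6 and 46.4 CPM after PBS, so that rmCIRBP 2 lay far above every other library while rmCIRBP 3 lay below PBS 1. The log2 fold change was 0.67 ± 0.28 (edgeR adjusted p = 0.165), and 0.25 without rmCIRBP 2 (0.365). Of 7 tryptophan breakdown genes, among them Ido1, only Afmid passed the filter on counts (log2 fold change -0.74 ± 0.25; edgeR adjusted p = 0.0979). Ido1, which degrades tryptophan, had 0 counts in every rmCIRBP library, which allows up to 0.214 to 0.219 CPM, and 1 count in the PBS libraries together.

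Yars2, the mitochondrial tyrosyl-tRNA synthetase (GRCm38 chromosome 16, 16302965 to 16309640, plus strand), rose. It had 12.9, 14.2 and 14.4 CPM after rmCIRBP and 7.82, 7.40 and 7.04 CPM after PBS. The libraries were close within each group and far apart between them. The log2 fold change was 0.90 ± 0.15 (SE, n = 3 each; edgeR adjusted p = 0.00994), and the call held in each of 6 fits that left out a library, with adjusted p from 0.0186 to 0.0444. Of the 3235 runs of 50 bases in its transcripts, 0 occur in another annotated gene.

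Sars2, the mitochondrial seryl-tRNA synthetase (chromosome 7, 28741992 to 28753871, plus strand), rose by less. Its level was 13.5, 12.4 and 13.6 CPM after rmCIRBP and 9.32, 9.11 and 7.25 CPM after PBS, with no overlap. The log2 fold change of 0.63 ± 0.17 only just passed (edgeR adjusted p = 0.0490). The call was lost when any 1 of the 6 libraries was left out, with edgeR adjusted p from 0.0505 without PBS 1 to 0.151 without PBS 3, and with upper quartile or library size scaling (0.0616 and 0.0537). Its cytosolic counterpart Sars had an estimate of the other sign (-0.18 ± 0.21).

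Fars2, the mitochondrial phenylalanyl-tRNA synthetase (chromosome 13, 36117412 to 36726280, plus strand), fell. It had 23.8, 15 and 26.2 CPM after rmCIRBP and 41.8, 48.9 and 57.1 CPM after PBS. The groups were well apart, with rmCIRBP 2 the lowest library. The log2 fold change was -1.18 ± 0.22 (SE, n = 3 each; edgeR adjusted p = 0.0133), and the call was lost without PBS 2 (0.0570) or PBS 3 (0.0557).

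The last 501 bases of Fars2 (36725780 to 36726280) are also exonic in Nrn1, a neuritin gene on the other strand. These bases belong to 1 of 13 annotated Fars2 transcripts and hold no coding base of either gene. Another 115 exonic bases are shared with Lyrm4, also on the other strand, whose groups overlapped (log2 fold change -0.14 ± 0.21). Nrn1 had 21.9, 10.1 and 31.5 CPM after rmCIRBP and 57.0, 72.2 and 93.6 CPM after PBS, and it fell by 1.81 ± 0.37 on the log2 scale (edgeR adjusted p = 0.0199). Fars2 and Nrn1 ranked the 6 libraries in the same order, from rmCIRBP 2 at the bottom to PBS 3 at the top. The strand setting of the counting is not given in the sources used here, and the part of Nrn1 reads in the Fars2 counts was not tested.

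**Figure D3:**
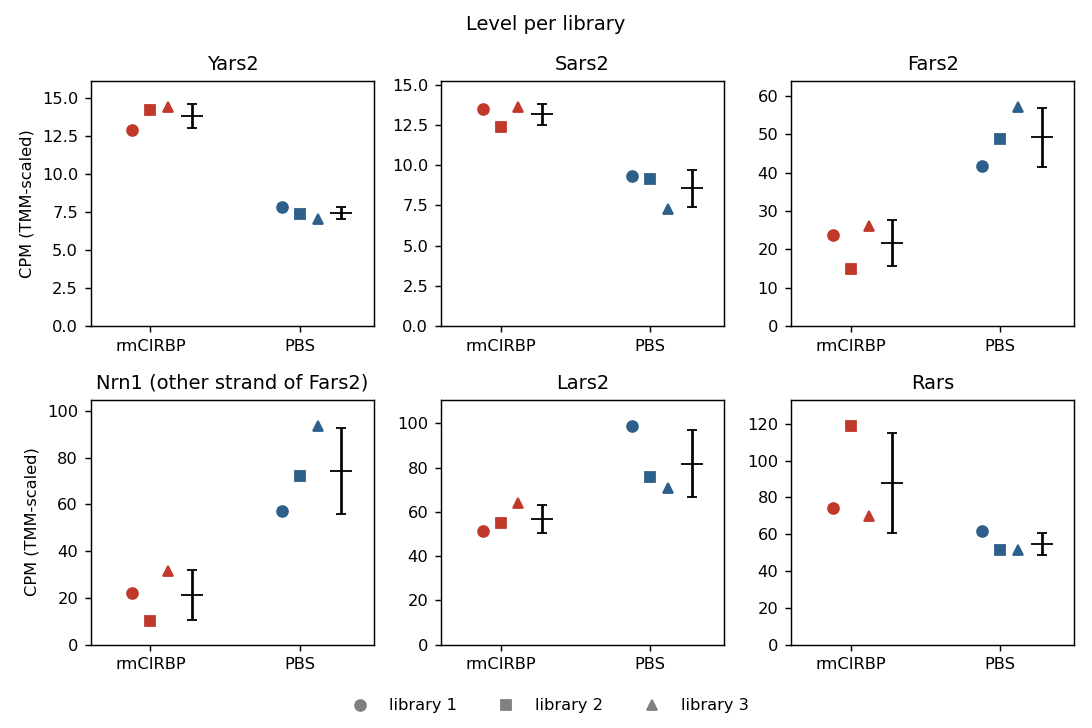
Points are CPM in each library, with marker shape for the library number, and black bars give the mean ± SD of 3 libraries. Yars2, Sars2, Fars2, Nrn1, Lars2 and Rars each separate rmCIRBP from PBS without overlap, and Fars2 and Nrn1 place the 6 libraries in the same order.

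Lars2, the mitochondrial leucyl-tRNA synthetase (chromosome 9, 123366927 to 123462666), did not pass with edgeR. It had 51.5, 54.9 and 63.9 CPM after rmCIRBP and 98.9, 75.7 and 70.6 CPM after PBS, without overlap. The log2 fold change was -0.53 ± 0.15 (edgeR adjusted p = 0.0626, DESeq2 adjusted p = 0.0294), and -0.36 without PBS 1. Vars2, for valine, likewise did not overlap, with 22.0, 22.4 and 20.6 CPM after rmCIRBP and 25.5, 29.3 and 32.5 CPM after PBS (log2 fold change -0.43 ± 0.13; edgeR adjusted p = 0.0706). Vars2 shares 465 exonic bases with an antisense gene, Gm20483, which was at -0.63 ± 0.24 on the log2 scale and was not called. Vars2 was called without PBS 1 (edgeR adjusted p = 0.0438).

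Hars2 was also lower without overlap, at 33.8, 33.2 and 34.8 CPM after rmCIRBP and 39.6, 40.7 and 39.8 CPM after PBS, and missed the threshold (log2 fold change -0.24 ± 0.09; edgeR adjusted p = 0.145). Its gene starts head to head with Hars, the cytosolic histidyl enzyme, and they share 195 exonic bases. Hars had 62.9, 75.0 and 60.7 CPM after rmCIRBP and 58.6, 49.9 and 50.5 CPM after PBS, so that its groups did not overlap in the other direction (log2 fold change 0.32 ± 0.12; edgeR adjusted p = 0.129). In all, groups did not overlap for 3 cytosolic members higher and 1 lower and for 4 mitochondrial members higher and 4 lower, against 17.5% of all genes higher and 17.1% lower.

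None of the remaining mitochondrial members passed. Ears2, for glutamate, had 7.94, 9.40 and 8.58 CPM after rmCIRBP and 7.57, 6.83 and 7.45 CPM after PBS, without overlap (log2 fold change 0.25 ± 0.17). Iars2, for isoleucine, did not overlap either (0.17 ± 0.09), and it shares exonic bases with Rab3gap2. Mars2, the least abundant per kilobase, had 8.97, 16.0 and 11.2 CPM after rmCIRBP and 11.2, 7.24 and 7.59 CPM after PBS (log2 fold change 0.48 ± 0.27; edgeR adjusted p = 0.286), with rmCIRBP 2 again highest. Without rmCIRBP 2 its log2 fold change was 0.22. Nars2 was at 0.48 ± 0.26 with the same highest library, and at 0.24 without it. Rars2, Tars2, Wars2, Aars2 and Cars2 lay between -0.16 and 0.14, and Pars2 at -0.29 ± 0.31 rested on 40 to 76 counts per library.

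Set side by side for the 17 amino acids with an enzyme in each compartment, the cytosolic gene had the higher log2 fold change in 13 of 18 pairs, since phenylalanine has a pair of cytosolic subunits and Eprs serves glutamate and proline. The signs differed in 9 pairs. Without rmCIRBP 2 these counts were 11 and 12 of 18, and without PBS 1 they were 15 and 9. The widest gap was that of phenylalanine, with Farsb at 0.69 and Fars2 at -1.18, and it ran the other way for tyrosine and serine, with Yars at 0.24 beside Yars2 at 0.90 and Sars at -0.18 beside Sars2 at 0.63. After PBS, the cytosolic gene was the more abundant per kilobase in 16 of 18 pairs, with a median ratio of 5.6 and a range from 0.595 (Farsb over Fars2) to 71.6 (Nars over Nars2). These are descriptions of estimates, and the difference within a pair was not tested.

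**Figure D4:**
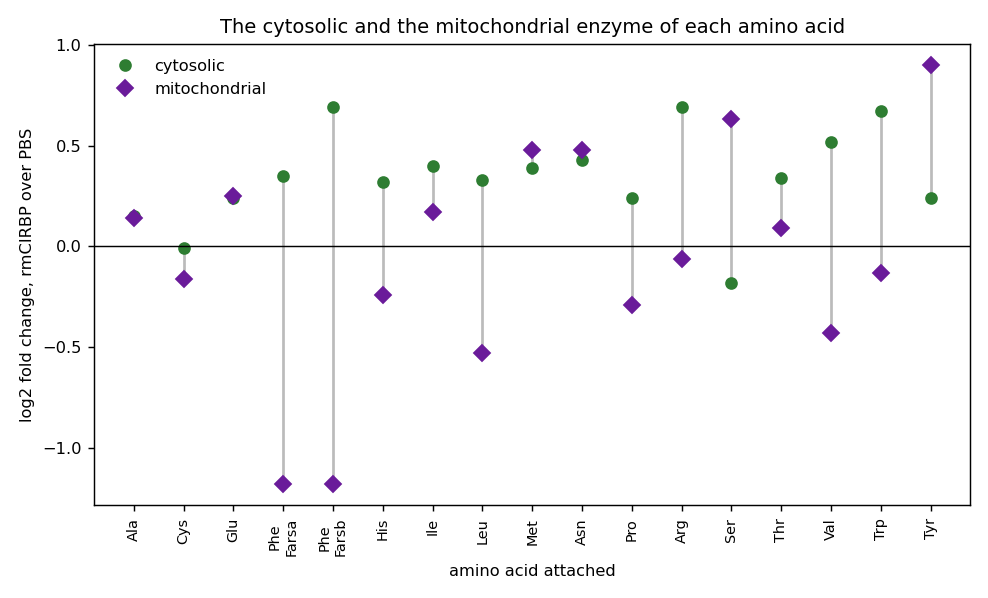
For each of 16 amino acids, a circle gives the log2 fold change of rmCIRBP over PBS of the cytosolic gene and a diamond that of the mitochondrial gene, joined by a line, with Farsa and Farsb each set against Fars2. Lines are long for phenylalanine, valine, leucine, serine, tryptophan, arginine and tyrosine and short for alanine, glutamate and asparagine.

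Of the 3 scaffolds of the multisynthetase complex, none passed. Aimp1 had 55.5, 54.6 and 50.1 CPM after rmCIRBP and 64.2, 63.8 and 69.5 CPM after PBS (log2 fold change -0.30 ± 0.10; edgeR adjusted p = 0.0835), and Aimp2 was at 0.35 ± 0.17. Eef1e1 had 36.7 CPM in rmCIRBP 2 against 18.1 in each of rmCIRBP 1 and 3. Mitochondria load glutamine by converting glutamate on the tRNA, with the enzyme subunits Qrsl1, Gatb and Gatc, and none of these 3 passed. Qrsl1 was at 0.59 ± 0.27 (edgeR adjusted p = 0.194) and Gatc at -0.07 ± 0.12.

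Of 6 synthetase-like and editing genes listed, 4 were tested and none passed. In these 4, which were chosen with results known, every rmCIRBP value lay below every PBS value, as in 17.1% of all genes. Tarsl2, a second cytosolic threonyl-tRNA synthetase that the symbol rule leaves out, had 8.09, 7.88 and 7.33 CPM after rmCIRBP and 13.3, 9.44 and 11.4 CPM after PBS (log2 fold change -0.55 ± 0.18; edgeR adjusted p = 0.0934). Prorsd1 was at -0.36 ± 0.15. Dtd1, which removes D-amino acids from tRNA, was at -0.35 ± 0.16, and Dtd2 at -0.31 ± 0.16.

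Of 6 cytosolic elongation and related factors none passed. Eif5a, a translation factor that carries hypusine, came nearest with 373, 510 and 374 CPM after rmCIRBP and 322, 228 and 213 CPM after PBS (log2 fold change 0.72 ± 0.20; edgeR adjusted p = 0.0551), and it was called without PBS 1 (0.0227) and by DESeq2 (0.00764). Eef2, which moves the ribosome along the mRNA, was at -0.35 ± 0.15 (edgeR adjusted p = 0.170; DESeq2 0.0389). Of 9 mitochondrial translation factors, Gfm2, a factor of ribosome recycling, fell and none rose. It had 51.1, 43.7 and 50.6 CPM after rmCIRBP and 62.5, 63.1 and 71.2 CPM after PBS (log2 fold change -0.44 ± 0.11; edgeR adjusted p = 0.0407), a call lost when any 1 of the 6 libraries was left out (0.0510 without PBS 1 to 0.143 without PBS 3). Mtrf1 and Mtif3 were at -0.52 ± 0.22 and -0.21 ± 0.11. Of 6 genes for tRNA export and end formation none passed, with Elac2 at 0.31 ± 0.13 and Ssb at 0.36 ± 0.15, which was called without PBS 1 (edgeR adjusted p = 0.0444).

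Of the 24 amino acid synthesis and ATF4 stress genes, 1 fell and none rose, with a median log2 fold change of -0.01. Ddit3, a stress-induced transcription factor, had 39.8, 55.3 and 41.1 CPM after rmCIRBP and 63.3, 70.9 and 73.2 CPM after PBS (log2 fold change -0.61 ± 0.15; edgeR adjusted p = 0.0361). The call was lost without rmCIRBP 1 (0.128), rmCIRBP 3 (0.0899), PBS 2 (0.128) or PBS 3 (0.125). Ddit3 shares 68 exonic bases with Mars1, the cytosolic methionyl enzyme on the other strand, which had 106, 133 and 87.5 CPM after rmCIRBP and 100, 81.0 and 67.2 CPM after PBS (log2 fold change 0.39 ± 0.19; edgeR adjusted p = 0.218). Vldlr and Atf5 were at -0.61 ± 0.17 and -0.65 ± 0.26 and did not pass with edgeR (adjusted p = 0.0541 and 0.144). DESeq2 called Vldlr (adjusted p = 0.0155) but not Atf5 (0.0783). With the replicate number as a block both were called (edgeR adjusted p = 0.0325 and 0.0404). Vldlr was also called with no filter (0.0164), upper quartile scaling (0.0389) and library size scaling (0.0466). Of the fits that left out 1 library, both were called only without rmCIRBP 2 (edgeR adjusted p = 0.0182 for Vldlr and 0.0345 for Atf5).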

How the data were processed

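The authors deposited a table of raw counts per gene, 1 column per library. Per the submitters' processing notes, featureCounts, DESeq2 and R 4.1.2 were used with the GRCm38 (mm10) build. Not given in the sources used here are the aligner, annotation release, strand setting and handling of multi-mapping reads. Columns were matched to samples by group and number in the titles.

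Counts were analysed with edgeR 4.0.16 in R 4.3.3: filterByExpr by group (15801 genes kept), trimmed mean of M values (TMM) scaling, and a two-sided quasi-likelihood F test of treatment with Benjamini-Hochberg adjustment over all genes tested, called at 0.05. CPM values are TMM-scaled, and standard errors are the absolute log2 fold change over the square root of F. Marker sums use library totals. A count of 0 allows 3 counts, 0.210 to 0.248 CPM per library, counting error only. Kilobases are merged exons of coding transcripts in GENCODE vM21, in which all 37 genes had the same start and end. Shared sequence was searched as 50-base runs in GENCODE transcripts. The fits were tested on counts simulated for each gene independently. No simulated library shifted many genes together, so that test cannot show how the fits handle such a library.

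Members and lists were chosen with earlier results of these data known. All members enter the counts and medians; 1 mitochondrial member and 1 marker are not reported here by name. By rule, values were given in full for members that passed the test, were the most or least abundant of their compartment per kilobase, or had its highest or lowest fold change; of the other lists, each gene that passed and up to 2 others with the smallest p were named. All other named genes, the motif and the split by multisynthetase complex were chosen after values were seen, as were the mitochondrial sum without Fars2 and Lars2 and the values with libraries left out for the complex groups and pairs. No set test was made.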

Additional observations from a re-analysis of the deposited data

How the results depend on the processing

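Alternatives were other filters and scalings, DESeq2, limma voom 3.58.1, the replicate block, protein-coding genes alone, an adjusted p of 0.1, each library left out, Gars and Kars left out, and, chosen after the values were seen, rmCIRBP 2 and PBS 1 left out together. Yars2 was called in all of these, and Fars2 in all except without PBS 2 or PBS 3. Cytosolic members called higher numbered 0, but 4 with no filter on low counts (Farsb, Rars, Vars and Wars), 1 with DESeq2, 1 at 0.1, 0 to 1 with a library left out, and 2 without rmCIRBP 2 and PBS 1; those called lower numbered 0 throughout. Mitochondrial members called higher numbered 2, but 1 with upper quartile or library size scaling, 1 with the replicate block, and 1 to 1 with a library left out. Those called lower numbered 1, but 2 with no filter, 3 with upper quartile scaling, 2 with library size scaling, 2 with DESeq2, 3 at 0.1, 0 to 2 with a library left out, and 2 without rmCIRBP 2 and PBS 1. With a library left out, the cytosolic median log2 fold change was 0.08 to 0.51, the mitochondrial -0.02 to 0.14 and their difference 0.10 to 0.47; without rmCIRBP 2 and PBS 1 the mitochondrial median was -0.07. Over all genes, 1653 higher and 1413 lower were called at 0.1, 1172 lower with DESeq2, 466 lower with the replicate block, 1669 higher and 1133 lower without rmCIRBP 2 and PBS 1, and 513 to 1299 higher and 203 to 845 lower with a library left out. Causes were not tested.

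Deviations from group means had r across genes of -0.15, -0.21 and 0.28 for libraries numbered 1, 2 and 3 in both groups. Differently numbered libraries ranged from -0.39 (rmCIRBP 3 with PBS 1) to 0.42 (rmCIRBP 2 with PBS 1). Deviations from a mean of 3 libraries depend on each other, so these values cannot tell whether same-numbered libraries were paired. With the replicate block Sars2 was not called (edgeR adjusted p = 0.107), nor was Gfm2 (0.0795). Small estimates of uncalled genes changed sign. This held for Cars with no filter (0.01) and for Tars2 (-0.07) without rmCIRBP 2 and PBS 1. With a library left out, sign changed within the ranges -0.11 to 0.35 for Aars, -0.23 to 0.19 for Cars, -0.07 to 0.47 for Eprs, -0.01 to 0.54 for Lars, -0.41 to 0.01 for Sars, -0.02 to 0.46 for Yars, -0.19 to 0.03 for Rars2, -0.02 to 0.17 for Tars2 and -0.32 to 0.0094 for Wars2. Members had at least 40 counts in every library, so depth limits chiefly Pars2 and Nars2. Of 50-base runs, Iars2 shared 22.74% with other genes, chiefly Rab3gap2, and Aars 13.81%, chiefly Exosc6.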
